A study of Mus musculus with 6 samples.

Results

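The genes described here encode the protein core of the small nucleolar ribonucleoproteins (snoRNPs) together with the abundant nucleolar proteins nucleolin and nucleophosmin. They are *Ncl*, *Npm1*, *Nop56*, *Nop58*, *Fbl*, *Dkc1*, *Nhp2*, *Gar1*, *Nop10* and *Nolc1*, 10 of the 20654 genes in a count table from cultured mouse muscle satellite cells (MuSCs). They were taken by symbol, and the family was selected on the measured difference between the *Piezo1* cKO and control counts of these same libraries, so that difference is given below as a description. Their levels in the 6 libraries, the values of their partner genes and the sequences they carry are given in turn.

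MuSCs, the stem cells of skeletal muscle, were sorted from C57BL/6 mice as VCAM1+, CD31-, CD45-, Sca1- cells and cultured for 3 days in growth medium with serum and basic fibroblast growth factor. There were 3 libraries from mice labelled wild type, called control here, and 3 from mice labelled *Piezo1* cKO, called cKO-labelled here. According to the study, *Piezo1* cKO mice carried floxed *Piezo1* alleles with *Pax7* CreERT2, in which tamoxifen activates a Cre recombinase made in *Pax7*-expressing cells. A figure legend of the study names the controls of its RNA-seq comparison as *Pax7* CreERT2/+. The study's mice for ex vivo work were injected with tamoxifen on consecutive days, and the active form of tamoxifen was added to the medium of both groups. The age of these mice is not given in the sources used here. The libraries held 740936, 931168 and 891531 UMI counts in controls 1 to 3 and 810096, 726378 and 769295 in cKO-labelled libraries 1 to 3, where a UMI count stands for a cDNA molecule. *Piezo1* itself had 11, 5 and 6 counts in control and 7, 12 and 9 in the cKO-labelled libraries, and these ranges overlapped. Where the floxed exons lie relative to the counted part of the transcript was not examined, so these counts do not check the labels, and each direction below rests on them.

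The nucleolus is where ribosomal RNA is transcribed, modified and packed into ribosomal subunits. Small nucleolar RNAs (snoRNAs) guide the modification by base pairing. Box C/D snoRNAs direct methylation of ribose by fibrillarin, the product of *Fbl*, on a scaffold of NOP56 and NOP58, whereas H/ACA snoRNAs direct pseudouridylation by dyskerin, the product of *Dkc1*, with NHP2, NOP10 and GAR1. The H/ACA proteins also bind the telomerase RNA. NOLC1 associates with both classes of particle, nucleolin (*Ncl*) binds ribosomal DNA and precursor RNA, and nucleophosmin (*Npm1*) is a scaffold of the nucleolar granular component. Dividing cells are known for prominent nucleoli, and ribosome production is known to decline when myoblasts differentiate.

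Of the 10 genes, 4 also hold snoRNA genes in the GENCODE M21 annotation of GRCm38. These are *Ncl* with 3, *Nop56* with 5, *Nop58* with 4 and *Dkc1* with 1, so 13 in all, and each of the 13 lies within an intron of the host's principal transcript. The host transcript is spliced and the snoRNA is cut from the intron. *Ncl* lies on chromosome 1 from 86344719 to 86359400 on the minus strand, and *Nop56* on chromosome 2 from 130274430 to 130279313 on the plus strand. The snoRNAs of these hosts are shown because *Ncl* and *Nop56* had the lowest ratios of *Piezo1* cKO to control level among the 10 genes. They are written as DNA from 5′ to 3′ on the strand of the host, with coordinates of GRCm38, and with capitals for TGATG within the first 20 bases (box C), CTGA within the last 20 bases (box D) or ACA before the last 3 bases (the ACA box), searched on the RNA strand.
Snord82, intron 5 of Ncl, chr1:86356261-86356330: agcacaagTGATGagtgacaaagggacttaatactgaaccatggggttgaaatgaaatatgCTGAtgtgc
Gm24148, intron 11 of Ncl, chr1:86352008-86352087: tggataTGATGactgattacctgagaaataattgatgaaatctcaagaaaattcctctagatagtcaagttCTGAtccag
Snora75, intron 12 of Ncl, chr1:86351169-86351301: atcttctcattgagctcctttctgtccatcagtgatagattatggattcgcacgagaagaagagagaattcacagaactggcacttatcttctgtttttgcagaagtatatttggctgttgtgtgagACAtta
Snord110, intron 3 of Nop56, chr2:130275506-130275573: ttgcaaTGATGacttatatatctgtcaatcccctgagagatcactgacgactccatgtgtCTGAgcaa
Gm24451, intron 5 of Nop56, chr2:130276237-130276369: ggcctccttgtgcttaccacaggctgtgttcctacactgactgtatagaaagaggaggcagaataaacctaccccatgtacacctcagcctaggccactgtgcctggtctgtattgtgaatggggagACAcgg
Gm23187, intron 8 of Nop56, chr2:130277195-130277280: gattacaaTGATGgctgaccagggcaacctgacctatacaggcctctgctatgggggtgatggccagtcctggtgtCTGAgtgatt
Gm23650, intron 9 of Nop56, chr2:130277697-130277766: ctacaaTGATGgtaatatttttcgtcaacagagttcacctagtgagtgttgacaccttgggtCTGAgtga
Snord57, intron 10 of Nop56, chr2:130278016-130278087: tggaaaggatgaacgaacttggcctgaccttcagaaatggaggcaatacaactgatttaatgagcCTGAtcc

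By these letters, 10 of the 13 snoRNAs ended as box C/D RNAs, of which 9 also held TGATG, and 2 ended as H/ACA RNAs. Snord57 lacked the exact TGATG in its window, and Gm25520 in *Dkc1* held none of the end letters. Among all 1507 snoRNA transcripts of the annotation, 23.6% held both TGATG and CTGA in these windows and 18.3% held ACA before the last 3 bases. The motifs were chosen after the sequences were read. Reverse transcription was primed with oligo-dT, which binds poly(A) tails, and the snoRNAs themselves were hardly counted. The 79 snoRNA and small Cajal body RNA genes in the table had from 58 to 98 summed counts per library. What follows for the hosts therefore concerns their messenger RNA.

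**Figure D1:**
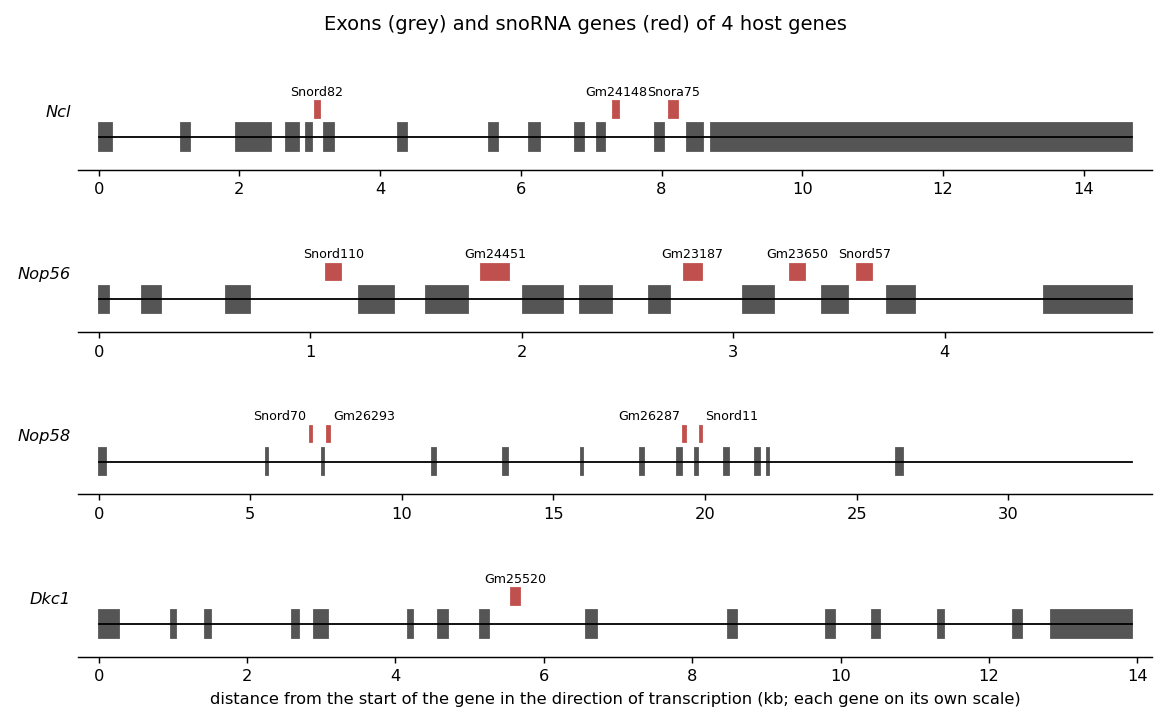
Exons (grey boxes) of the principal transcript and snoRNA genes (red boxes) of the 4 host genes, against the distance from the gene's start in kb, with a separate scale for each gene. All 13 snoRNA genes sit between exons, 5 of them in *Nop56*.

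The other members lie on chromosome 11 (*Npm1*, 33152287 to 33163206, and *Nhp2*, 51619735 to 51623714), chromosome 1 (*Nop58*, 59684971 to 59719044), chromosome 7 (*Fbl*, 28169710 to 28179269), chromosome X (*Dkc1*, 75095854 to 75109777), chromosome 3 (*Gar1*, 129824912 to 129831396), chromosome 2 (*Nop10*, 112261926 to 112263269) and chromosome 19 (*Nolc1*, 46075863 to 46085530) of GRCm38.

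Together the 10 genes took 0.575%, 0.672% and 0.574% of the counts in controls 1 to 3 and 0.508%, 0.427% and 0.490% in cKO-labelled libraries 1 to 3. All 10 passed the filter on low counts and were abundant in both groups.

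The question asked of the counts was how these genes differed between the cKO-labelled libraries and control. In 9 of the 10, the mean level was lower in the cKO-labelled libraries, and *Nop10* was the exception. The median log2 fold change of the 10 genes was -0.36, beside 0.002 for all 8551 genes tested, of which 49.8% were below 0. In 6 genes, *Ncl*, *Npm1*, *Nop56*, *Nop58*, *Fbl* and *Nhp2*, every cKO-labelled library was below every control library, as were 8.31% of all genes tested, whereas 8.2% were above in the same sense. In edgeR's fit across all genes, *Ncl* and *Nop56* were the 2 members called at an adjusted p under 0.05, beside 0.784% of all genes tested in either direction and 0.316% in the lower direction. Nothing is read from these shares, because the members were chosen with this comparison known. Fewer cells that express these genes and less of their RNA per cell cannot be told apart in such bulk samples.

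*Ncl* encodes nucleolin, a multifunctional RNA-binding protein. Its level was 1772, 1882 and 1549 CPM in controls 1 to 3 and 1342, 902.1 and 1187 CPM in cKO-labelled libraries 1 to 3, where CPM are counts scaled to a library size of 1e6 with TMM normalisation. The groups did not overlap, with *Piezo1* cKO 2 the lowest library and *Piezo1* cKO 1 the nearest to control. The means were 1730 ± 169 and 1140 ± 223 CPM (SD, n = 3 each), with a log2 fold change of -0.60 (SE, the standard error of the fit, 0.15), or 66.0% of the control level. *Npm1* encodes nucleophosmin, which also acts as a histone chaperone. It had 1129, 1168 and 1122 CPM in control and 845.4, 744.9 and 883.8 CPM in the cKO-labelled libraries. The control libraries lay closer together than in most of the other members, and all 3 were above the other group. The log2 fold change was -0.47 (SE 0.14), or 72.4% of control. *Nolc1*, whose product shuttles between nucleolus and Cajal bodies, had 342.3, 481.9 and 357.8 CPM in control and 368.8, 225.8 and 304.8 CPM in the cKO-labelled libraries. These ranges overlapped, since *Piezo1* cKO 1 was above controls 1 and 3. Its log2 fold change was -0.40 (SE 0.15).

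Among the 3 box C/D proteins, *Nop56* was the lowest relative to control. NOP56 and NOP58 are paralogues that together hold the guide RNA in the particle. *Nop56* had 559.4, 613.5 and 441.6 CPM in control and 405.6, 318.3 and 351.1 CPM in the cKO-labelled libraries. The groups did not overlap, although control 3 and *Piezo1* cKO 1 were close. The means were 538 ± 87.9 and 358 ± 44.1 CPM (SD, n = 3 each), with a log2 fold change of -0.59 (SE 0.14), or 66.6% of control. *Nop58* had 468.8, 604.5 and 514.8 CPM in control and 439.8, 343.4 and 424.0 CPM in the cKO-labelled libraries, a log2 fold change of -0.40 (SE 0.14). *Fbl*, which encodes the methyltransferase itself, had 421.4, 497.5 and 428.6 CPM in control and 394.2, 326.2 and 404.1 CPM in the cKO-labelled libraries. Its log2 fold change of -0.26 (SE 0.13) was the smallest of the 3 in size. *Nop58* and *Fbl* did not overlap between the groups, but control 1 and a library of the other group were close in both. Within libraries, the ratio of *Nop56* to *Nop58* counts was 1.19, 1.01 and 0.858 in control and 0.922, 0.927 and 0.828 in the cKO-labelled libraries, so the ratios overlapped. The ratio of *Nop56* to *Fbl* was 1.33, 1.23 and 1.03 in control and 1.03, 0.976 and 0.869 in the cKO-labelled libraries, where control 3 and *Piezo1* cKO 1 met.

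Of the 4 H/ACA proteins, *Dkc1*, *Nhp2* and *Gar1* had lower mean levels in the cKO-labelled libraries, and *Nop10* did not. *Dkc1*, the pseudouridine synthase, had 361.0, 485.2 and 394.4 CPM in control and 372.6, 301.1 and 336.6 CPM in the cKO-labelled libraries. These ranges overlapped, and the log2 fold change was -0.30 (SE 0.14). *Nhp2*, an RNA-binding subunit, had 601.1, 623.5 and 619.9 CPM in control and 505.7, 439.8 and 522.1 CPM in the cKO-labelled libraries. The groups did not overlap, and the log2 fold change was -0.33 (SE 0.13). *Gar1*, a subunit that binds dyskerin, had 204.2, 307.8 and 265.7 CPM in control and 248.4, 166.4 and 220.0 CPM in the cKO-labelled libraries. Control 1 lay among the libraries of the other group, and the log2 fold change was -0.30 (SE 0.15). *Nop10*, the smallest subunit, had 266.0, 315.7 and 346.0 CPM in control and 290.3, 330.2 and 363.1 CPM in the cKO-labelled libraries. The groups overlapped almost entirely, with a log2 fold change of 0.08 (SE 0.14). The ratio of *Nop10* to *Dkc1* counts within a library was 0.737, 0.651 and 0.877 in control and 0.779, 1.1 and 1.08 in the cKO-labelled libraries, whereas that of *Gar1* to *Dkc1* was 0.566, 0.634 and 0.674 against 0.667, 0.553 and 0.654. Both ratios overlapped between the groups.

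**Figure D2:**
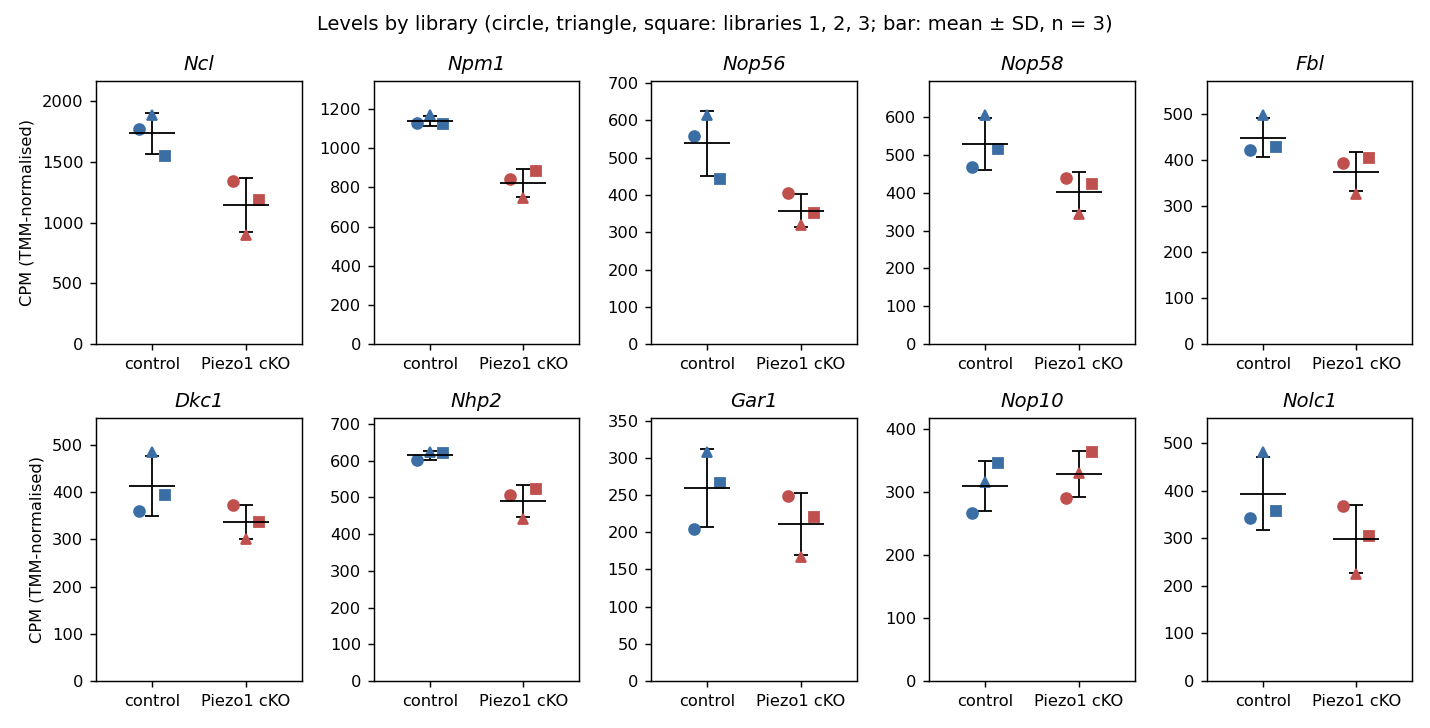
Level of each gene in CPM (vertical axes, from 0) in the 3 control libraries and the 3 libraries labelled *Piezo1* cKO, with symbols for library 1, 2 and 3 and the mean ± SD. The groups are separate in 6 genes, *Ncl*, *Npm1*, *Nop56*, *Nop58*, *Fbl* and *Nhp2*, and the levels of *Nop10* overlap.

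Some counts can be shared with other genes, since the treatment of reads that map to several places and the use of strand are not given in the sources used here. A search of the GENCODE transcripts of other genes for stretches of at least 150 bases with at least 95% identity found none for *Ncl*. Genes with such a stretch, called copies here, numbered 4 for *Npm1*, 4 for *Nop56* and 2 for *Fbl*. The copies of *Npm1* had 81, 98 and 94 counts in control and 65, 65 and 55 in the cKO-labelled libraries, in all 458 beside the 4680 of *Npm1*. Those of *Nop56* had 85 counts in all beside 2139. For *Fbl* the counted copy was *Tulp4*, with 896 counts over the whole gene beside the 1965 of *Fbl*. The 3' ends of *Nop56*, *Dkc1* and *Nhp2* overlap a neighbour on the other strand by 5, 45 and 44 bases, respectively. The log2 fold changes of these neighbours were -0.04 for *Idh3b*, -0.21 for *Mpp1* and 0.12 for *Rmnd5b* (adjusted p = 0.949, 0.671 and 0.906, edgeR). The part of shared reads in the members' levels was not tested.

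The spread between replicates, which does not use the difference between the groups, was larger than counting error for most members. In control, the coefficient of variation over the 3 libraries was 20.1% for *Gar1*, 19.4% for *Nolc1* and 16.3% for *Nop56*, where counting alone gives 6.83%, 5.55% and 4.78%. *Npm1* and *Nhp2* were the 2 members whose control libraries differed by less than counting error, with 2.18% and 1.96% against 3.28% and 4.47%. In the cKO-labelled libraries it ranged from 8.70% for *Npm1* to 23.9% for *Nolc1*.

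The deviations of the members from their group means were compared. Control 2 was the highest control library in 9 of the 10 genes, with *Nop10* the exception, and *Piezo1* cKO 2 was the lowest of its group in the same 9. Over all 45 pairs of members, the Pearson correlation of these deviations of log2 CPM had a median of 0.756 and ranged from -0.598 to 0.972. The 36 pairs without *Nop10* ranged from 0.38 to 0.97 and the 9 pairs with it from -0.60 to 0.24. For all 440391 pairs among the 939 tested genes at least as abundant as *Gar1*, the least abundant member, the median was 0.274. The 6 points of each correlation are the libraries and share their depth and normalisation.

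Of the 8541 other genes tested, those whose log2 CPM over the 6 libraries followed the mean of the 10 members most closely were *Slc48a1*, a haem transporter, *Grk6*, a receptor kinase, *Tpm3*, a tropomyosin, *Ebna1bp2*, a nucleolar protein of ribosome assembly, and *Prpf4*, a splicing factor. Their Pearson correlations with that mean were 0.994, 0.994, 0.992, 0.992 and 0.991. In all, 78 genes were above 0.95, so the 5 do not stand apart from many others over 6 libraries.

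**Figure D3:**
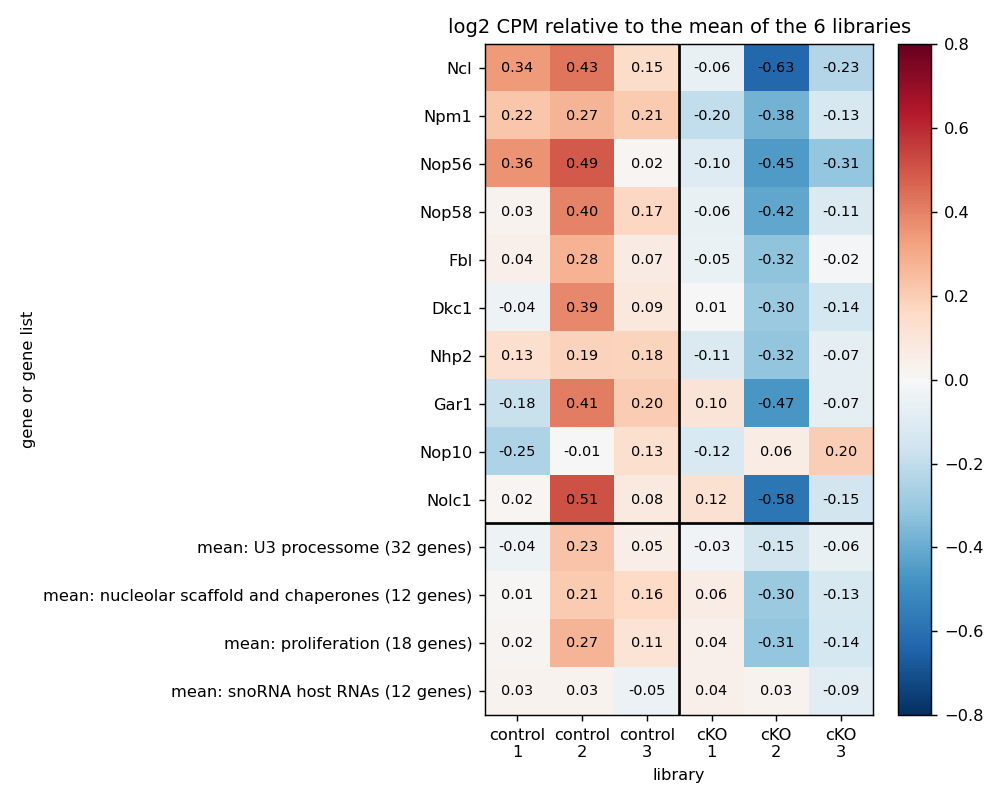
Log2 CPM of each gene in each library relative to its mean over the 6 libraries (upper rows), and the mean of the same quantity over 4 partner lists (lower rows), with red for above and blue for below. Control 2 is the highest and *Piezo1* cKO 2 the lowest library for 9 genes, with *Nop10* at -0.005 and 0.059 in these, and the snoRNA host RNAs stay between -0.09 and 0.04.

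Partner genes were examined as lists written by hand. The list of snoRNP assembly factors holds SNU13, which binds box C/D RNAs directly, and the chaperones that build both kinds of particle. Of its 12 genes 10 could be tested, 2 with a log2 fold change above 0 and 8 below, with a median of -0.24. With 1 library left out, this median lay between -0.29 (without control 3) and -0.13 (without control 2). It was -0.10 without both libraries numbered 2. No gene of this list was called in edgeR, in limma-voom or in DESeq2, which gave 2 of the 10 no adjusted p. An unadjusted p under 0.05 in edgeR with a lower level was found for 1 of them, beside 5.78% of all genes tested. *Snu13* was at 231.5, 252.1 and 220.8 CPM in control against 192.7, 204.7 and 201.4 CPM in the cKO-labelled libraries. These groups did not overlap, but the log2 fold change of -0.24 (SE 0.14) did not pass (adjusted p = 0.508, edgeR). *Shq1*, a chaperone of dyskerin, had a log2 fold change of -0.58 (SE 0.31, adjusted p = 0.451, edgeR), and *Rpap3*, part of a chaperone complex, one of -0.24 (adjusted p = 0.670, edgeR).

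The U3 processome, the particle in which the U3 box C/D snoRNA acts on the small-subunit precursor, was represented by 32 genes, all tested. Of these, 4 were above 0 and 28 below, with a median log2 fold change of -0.15. With 1 library left out, this median lay between -0.20 (without control 1) and -0.07 (without control 2). No gene was called in edgeR, limma-voom or DESeq2, which gave 4 of the 32 no adjusted p. In edgeR 4 had an unadjusted p under 0.05, all lower, beside 5.78% of all genes tested that were lower at this threshold. The groups did not overlap in 4, *Mphosph10*, *Noc4l*, *Rcl1* and *Krr1*, which was 12.5% of the list beside the 8.31% of all genes tested. *Mphosph10*, a U3 protein, had the largest difference of these, at 165 ± 25.2 CPM in control against 120 ± 4.45 CPM in the cKO-labelled libraries (SD, n = 3 each; log2 fold change -0.47, adjusted p = 0.144, edgeR).

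All 12 tested genes of the nucleolar scaffold and chaperone list were below 0, with a median of -0.30 and a range from -0.38 to -0.09, where 49.8% of all genes tested were below 0. The median lay between -0.39 and -0.21 with 1 library left out, and was -0.12 without both libraries numbered 2. Again no gene was called by edgeR, limma-voom or DESeq2, which gave 2 of the 12 no adjusted p. In edgeR 7 had an unadjusted p under 0.05, beside 5.78% of all genes tested that were lower at this threshold, and the groups did not overlap in 4 (33.3%, beside 8.31% of all genes tested). *Ddx21*, a nucleolar helicase, was at 225 ± 45.7 and 175 ± 17.6 CPM (SD, n = 3 each), with a log2 fold change of -0.37 (adjusted p = 0.247, edgeR). *Ubtf*, a factor of RNA polymerase I transcription, had one of -0.33 (adjusted p = 0.378), *Nop2* one of -0.30 (adjusted p = 0.436) and *Nifk* one of -0.29 (adjusted p = 0.393, all edgeR).

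The remaining partner lists were centred near 0. The 5 tested Cajal body and telomerase partners had a median log2 fold change of -0.02, with none called by edgeR or limma-voom and none at an unadjusted p under 0.05 in edgeR. The 12 tested non-coding host RNAs of snoRNAs had a median of 0.07, with 7 above 0 and 5 below, none called by these tools and none at an unadjusted p under 0.05 in edgeR. DESeq2 called none either, but its own filter left 4 of the 5 and 7 of the 12 without an adjusted p. *Gas5*, the most abundant of them, was at 277.5, 315.7 and 317.6 CPM in control against 275.0, 225.8 and 262.4 CPM in the cKO-labelled libraries (log2 fold change -0.26, adjusted p = 0.444, edgeR). *Snhg1* and *Snhg8* had log2 fold changes of -0.31 and 0.14 (adjusted p = 0.554 and 0.886, edgeR). Neither median had a stable sign. That of the host RNAs ranged from -0.04 without both libraries numbered 2 to 0.15 with total counts only, and that of the Cajal body list from -0.10 without *Piezo1* cKO 1 to 0.09 without control 2. The difference between the members and any of these lists was not tested.

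**Figure D4:**
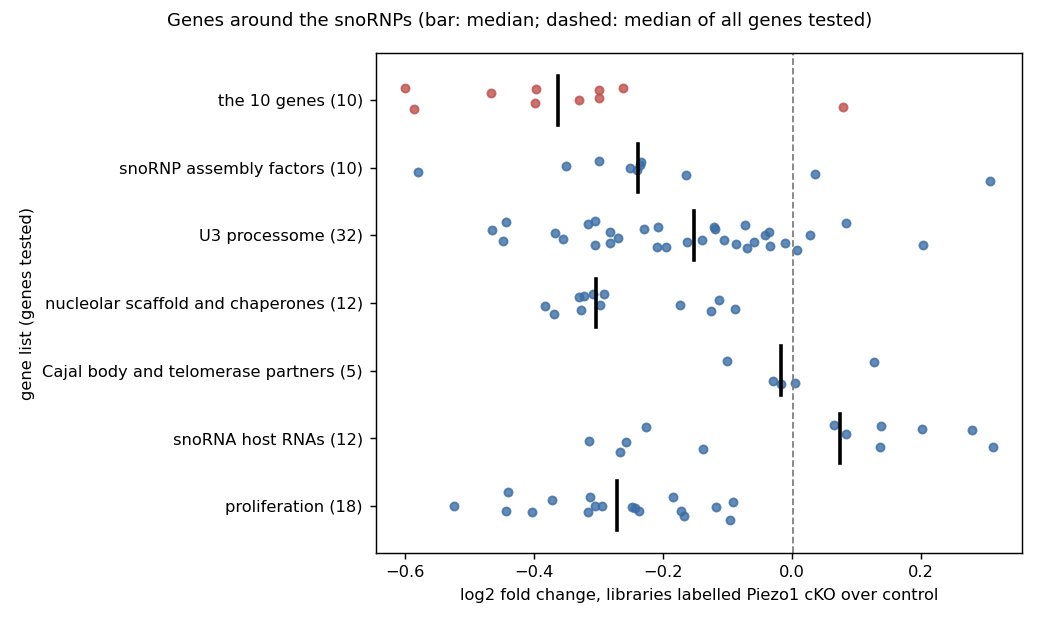
Log2 fold change (horizontal axis, cKO-labelled libraries over control) of each tested gene in the 10 members (red) and 6 partner lists (blue), with a bar at the list's median and a dashed line at the median of all genes tested. Of the 10 members 9 lie left of 0, and the medians run from -0.36 for the members to 0.07 for the snoRNA host RNAs.

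The levels of muscle differentiation and proliferation genes are given beside those of the members for each library. The mean log2 CPM of the members, relative to the 6 libraries, was 0.07, 0.33 and 0.13 in controls 1 to 3 and -0.05, -0.38 and -0.10 in cKO-labelled libraries 1 to 3. For 13 muscle differentiation genes the same quantity was -0.21, -1.83 and -0.68 in control and 0.26, 1.78 and 0.68 in the cKO-labelled libraries. The differentiation genes thus placed the 6 libraries in the reverse of the members' order. For 18 proliferation genes it was 0.02, 0.27 and 0.11 in control and 0.04, -0.31 and -0.14 in the cKO-labelled libraries. All 13 tested differentiation genes were above 0, with a median log2 fold change of 2.01, and *Tnni2*, a troponin of fast muscle, was the gene called in edgeR (log2 fold change 2.16, SE 0.45, adjusted p = 0.00459). *Tnni2* had 6, 2 and 4 counts in control and 16, 24 and 12 in the cKO-labelled libraries, and *Actc1* had 6, 0 and 0 against 11, 96 and 21. Both passed the filter through the cKO-labelled libraries alone, so their sign was in part set by the filter. With at least 10 counts required in every library, the list's median was 1.21. In limma-voom 10 of the 13 were called, *Tnni2* included, beside 0.842% of all genes in that fit. DESeq2 called *Acta1*, beside 0.674% of the genes to which it gave an adjusted p, and gave 5 of the 13, *Tnni2* among them, none. The summed level of the differentiation list was 640, 219 and 490 CPM in control and 850, 2490 and 1200 CPM in the cKO-labelled libraries, with *Acta1* the most abundant. All 18 tested proliferation genes were below 0, with a median of -0.27. None was called in edgeR, limma-voom or DESeq2, which gave 1 of the 18 no adjusted p, and 7 had an unadjusted p under 0.05 in edgeR, beside 5.78% of all genes tested. *Cdk1*, the mitotic kinase, was at 304 ± 23.3 and 229 ± 9.57 CPM (SD, n = 3 each; log2 fold change -0.40, adjusted p = 0.159, edgeR). *Tk1*, *Mcm5* and *Mcm3* of DNA synthesis had log2 fold changes of -0.52, -0.44 and -0.32 (adjusted p = 0.118, 0.137 and 0.376, edgeR). Control 2 and *Piezo1* cKO 2 were at the extremes of the differentiation genes and also of 9 of the 10 members, so leaving both out had to reduce the members' difference. Their median log2 fold change was then -0.14 in place of -0.36 with no member called, and that of the proliferation genes was -0.07. The differentiation genes then had a median of 1.05, with 7 called in edgeR beside 0.547% of all genes in that fit. The part of differentiation and proliferation in the members' difference was not tested.

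Markers of the labelled cell type were present. *Myod1* was at 1460 ± 102 CPM in control against 1310 ± 205 CPM in the cKO-labelled libraries, and *Des* at 527 ± 97.2 and 564 ± 44.0 CPM, while *Pax7* was low at 21.9 ± 7.32 and 14.3 ± 6.98 CPM (SD, n = 3 each). Of the 9 tested satellite cell markers none was called in edgeR, *Cd34* was called in DESeq2 and in limma-voom (beside 0.674% and 0.842% of all genes in these fits), and 4 had an unadjusted p under 0.05 in edgeR, beside 11.9% of all genes tested in either direction. DESeq2 gave 2 of the 9 no adjusted p. The largest differences without overlap were those of *Cd34* (log2 fold change -1.59, adjusted p = 0.181), *Sdc4* (-0.53, adjusted p = 0.0609), *Cdh15* (0.53, adjusted p = 0.118) and *Vcam1* (-0.45, adjusted p = 0.185, all edgeR). Summed endothelial markers, led by *Tek*, were between 8.27 and 21.2 CPM per library, with *Tie1* at 0, and blood cell markers, led by *Cd68*, between 10.1 and 27.9 CPM. These sums rest on 6 of 7 listed endothelial genes, without *Cdh5*, and on 3 of 8 listed blood cell genes. The others, *Ptprc*, *Adgre1*, *Itgam*, *Cd3e* and *Cd79a*, had no row under these symbols in the count table. Neither had *Calcr* of the satellite cell markers, *Dpt* of the fibro-adipogenic markers or *Kcnj8* of the mural and Schwann markers. Fibro-adipogenic markers summed to 198, 200 and 350 CPM in control and 285, 308 and 269 CPM in the cKO-labelled libraries. *Pi16* was at 0. Of the 2 genes of this list that could be tested, *Dcn* fell from 31.7 ± 10.3 to 6.91 ± 3.09 CPM (SD, n = 3 each; log2 fold change -2.17, adjusted p = 0.000387, edgeR). The other, *Col3a1*, the most abundant of the list, was higher on average and did not pass, with 196 ± 66.2 and 262 ± 20.8 CPM (log2 fold change 0.41, adjusted p = 0.265, edgeR). Among the genes of this list not tested, *Ly6a* had 2, 2 and 3 counts in control and 5, 8 and 9 in the cKO-labelled libraries. The others with counts were lower on average in the cKO-labelled libraries. *Pdgfra* had 4, 3 and 8 counts in control against 1, 1 and 3, *Col1a1* had 1, 7 and 17 against 8, 3 and 2, and *Lum* had 4, 1 and 0 against 1, 0 and 1. *Dcn* was also called in limma-voom and had no adjusted p in DESeq2, whose own filter left 4007 genes with one. Mural and Schwann markers, led by *Acta2*, summed to 249, 112 and 481 CPM in control and 406, 560 and 420 CPM in the cKO-labelled libraries, with neither of the 2 tested genes called, 1 of them (*Cspg4*, log2 fold change 0.76, adjusted p = 0.143, edgeR) at an unadjusted p under 0.05. The part of other cells in the members' difference was not tested.

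RefSeq promoters of GRCm38.p6 matched 8 of the 10 members, and *Npm1* and *Fbl* had no entry. In the 250 bases before the start site, the E-box CACGTG, a site known to bind MYC and its partners, was found in none of the 8, and in 6.02% of all 32851 windows of this length. The GC box, written GGGCGG on either strand (CCGCCC on the other), was found in 5 of the 8, *Ncl*, *Nop56*, *Nop58*, *Nhp2* and *Nolc1*, and in 32.7% of all windows. It was found 3 times in *Ncl* and in *Nhp2*, 2 times in *Nolc1*, once in *Nop56* and *Nop58*, and not in *Nop10*, *Dkc1* or *Gar1*. The share of G and C ranged from 41.2% in *Nop58* and 47.2% in *Nop10*, through 52.0% in *Dkc1* and 65.2% in *Nop56*, to 69.6% in *Ncl*, beside a median of 52.4% over all windows. The windows of the 2 members called in edgeR and of *Nop10*, the member that was not lower, are shown with the GC box in capitals, 5′ to 3′ on the strand of the gene. They span chr1:86359456-86359705 on the minus strand for *Ncl*, and chr2:130274162-130274411 and chr2:112261676-112261925 on the plus strand for *Nop56* and *Nop10*. These letters describe the windows and carry no information on what binds there.
Ncl: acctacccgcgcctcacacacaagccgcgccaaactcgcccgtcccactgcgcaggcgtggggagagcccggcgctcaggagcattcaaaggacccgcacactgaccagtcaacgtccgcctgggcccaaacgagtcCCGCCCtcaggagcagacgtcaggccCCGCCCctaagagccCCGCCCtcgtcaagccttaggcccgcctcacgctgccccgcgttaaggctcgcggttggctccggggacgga
Nop56: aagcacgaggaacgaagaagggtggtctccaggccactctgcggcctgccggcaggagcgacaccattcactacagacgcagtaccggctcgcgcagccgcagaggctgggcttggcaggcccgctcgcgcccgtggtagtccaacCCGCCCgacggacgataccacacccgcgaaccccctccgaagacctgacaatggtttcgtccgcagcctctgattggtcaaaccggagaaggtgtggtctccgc
Nop10: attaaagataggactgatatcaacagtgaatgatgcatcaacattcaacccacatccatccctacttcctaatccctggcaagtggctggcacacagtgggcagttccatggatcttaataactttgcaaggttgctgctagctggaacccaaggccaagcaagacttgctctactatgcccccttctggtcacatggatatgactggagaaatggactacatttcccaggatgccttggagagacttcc

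The calls of the members, and the size of several fold changes, depended on single libraries. With 1 library left out at a time, *Ncl* and *Nop56* were each called in 2 of 6 edgeR fits, without control 3 and without *Piezo1* cKO 1, and no member was called in the other 4. In these 2 fits 1.48% and 1.98% of all genes were called, beside 0.784% with all libraries. *Nolc1* was called without *Piezo1* cKO 1. The log2 fold change of *Ncl* lay between -0.73 and -0.46 and that of *Nop56* between -0.71 and -0.47 in these fits. Control 2 left out brought *Dkc1* to -0.16, *Gar1* to -0.15 and *Nolc1* to -0.22, and *Piezo1* cKO 2 left out brought *Fbl* to -0.17, *Gar1* to -0.16 and *Nolc1* to -0.23. With both left out, *Nop58* was at -0.19, *Fbl* and *Dkc1* at -0.09, *Nolc1* at -0.06 and *Gar1* at -0.01. *Nhp2* was then at -0.25, *Npm1* at -0.38, *Ncl* at -0.39 and *Nop56* at -0.40. DESeq2 called *Npm1* as well as *Ncl* and *Nop56*, beside 0.674% of the genes with an adjusted p in that fit. With cyclic loess normalisation no member was called, and the log2 fold changes of *Ncl*, *Npm1* and *Nop56* were -0.36, -0.25 and -0.44. Those of *Nop58*, *Fbl*, *Dkc1* and *Nhp2* were then -0.26, -0.14, -0.17 and -0.18. *Gar1* was at -0.22, *Nolc1* at -0.30 and *Nop10* at 0.18, and the members' median was -0.24.

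**Figure D5:**
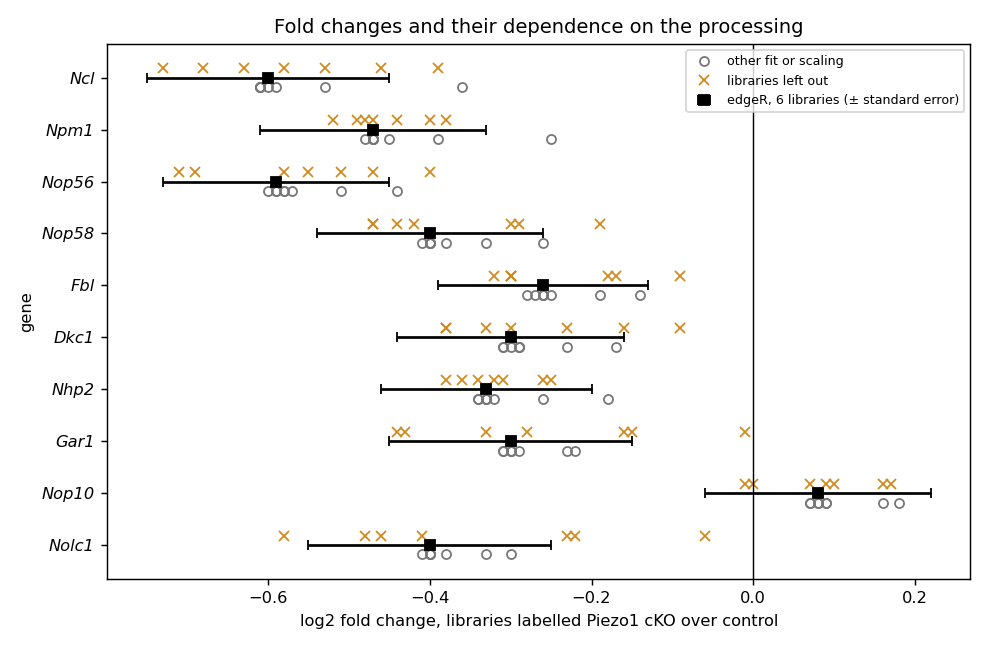
Log2 fold change of each gene (cKO-labelled libraries over control) in edgeR with its standard error (black), under other fits or scalings (open circles) and with libraries left out (crosses). Fold changes of 9 genes stay below 0 in every setting drawn, and those of *Nop10* lie between -0.01 and 0.18.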

How the data were processed

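RNA was reverse transcribed with barcoded oligo-dT primers that carry unique molecular identifiers (UMIs). The authors mapped the reads with STAR 2.7.9a to GRCm38, assigned them with featureCounts 2.0.1 and deposited UMI counts per gene from UMI-tools 1.1.1, 1 column per library, not normalised. Settings for strand and for reads that map to several places are not given in the sources used here.

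In R 4.3.3, edgeR 4.0.16 (TMM, filter with a minimum count of 10, robust quasi-likelihood test, Benjamini-Hochberg adjustment) was run on 8551 genes. A gene was called at an adjusted p under 0.05. *Piezo1* did not pass the filter. Log2 CPM used a prior count of 2. Scaled by total counts without TMM, a floor of 3 counts lies at 3.22 to 4.13 CPM for 726378 to 931168 counts per library. On the TMM scale used above, 3 counts were 4.314 CPM in control 1 and 3.346 CPM in control 2. Floors cover counting error only. P-values measure the spread between these libraries, which the labels do not tie to separate animals. Within each group, chi-square per degree of freedom between libraries was 1.64 to 2.61, which is more than counting error alone gives. This does not tell separate cultures from separate preparations of the same RNA.

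Members and lists were chosen with earlier results of these data known. Named genes were all members, called genes of each list and up to 4 of the largest differences without overlap, the most abundant other-cell markers, and the 5 genes most correlated with the members' mean. The untested fibro-adipogenic markers are given as well. No set test was made. Alternatives were DESeq2 1.42.0, limma-voom and cyclic loess (limma 3.58.1), other scalings and filters, a replicate block and libraries left out. On simulated counts of 8570 genes with 200 changed by 1.5 on the log2 scale, edgeR recovered 187 with 3 false calls, and DESeq2 recovered 155 with 1 on 20654 genes. This change is larger than that of any member, so recovery at the members' size was not simulated. The simulation also gave every gene the same spread between replicates beyond counting error. Its number of false calls therefore need not hold for these data. RefSeq protein sequences were not used here.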

Additional observations from a re-analysis of the deposited data

How the results depend on the processing

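With all 6 libraries, 9 of the 10 members were below 0 under every fit, scaling and filter tried. In edgeR 67 genes were called, 40 higher and 27 lower, and scaled by total counts only 49 were higher and 18 lower. DESeq2 called 27 genes (15 lower), the fit with no filter 129 (47 lower) and an adjusted p under 0.1 gave 124 (48 lower). With 1 library left out, between 6 genes (*Piezo1* cKO 2 left out) and 174 genes (*Piezo1* cKO 1 left out) were called, of which 2 to 73 were lower, 0 to 3 members were called, and the members' median was -0.45 to -0.25. No member was called with cyclic loess (0), nor without both libraries numbered 2, an alternative chosen after seeing the data, where the members' median was -0.14. *Nop10* changed sign without control 1 (-0.01) and was 0.00, on the negative side, without *Piezo1* cKO 3, with a range up to 0.17 without control 3. The cause of these changes was not tested. Same-numbered libraries had correlations of -0.143, -0.203 and 0.0121 in their deviations from the group means. The labels tie them by number only, and these correlations cannot show whether they shared a preparation. With the replicate block, 46 genes and the same 2 members were called. *Gar1*, the least counted member, had 126 to 276 counts per library, for which counting alone gives a coefficient of variation of 6.83% in control and 7.84% in the cKO-labelled libraries.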
